A study of Mus musculus with 12 samples.

Results

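In the spleens of NOD mice, CD8 T cells were sorted with a diabetes-associated peptide tetramer. They were divided here by 1 feature of their receptor, the V gene of the alpha chain. One class carried TRAV16N and the other class carried any other TRAV gene. The cells came from the 2 spleen IGRP+ libraries, round 1 and round 2. A barcode became a member when it had exactly 1 TRA and 1 TRB contig, mitochondrial UMIs under 5% and between 200 and 2000 detected genes. This gave 3328 cells of the 13667 cells that met the same kind of rule in all 6 libraries of the series. The TRAV16N class held 2959 cells, 1446 in round 1 and 1513 in round 2. The class with other TRAV genes held 369 cells, 214 in round 1 and 155 in round 2.

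The study paired single-cell RNA sequencing with single-cell T cell receptor sequencing in prediabetic NOD/ShiLtJ mice, the strain that develops autoimmune diabetes without treatment. In each round the organs of 10 female mice aged 10 to 15 weeks were pooled, so a round is 1 pool and not 1 animal. Spleen cells were enriched for CD8 T cells with magnetic beads and sorted as CD45.1+ Lin- CD8+ Tet+, and the study describes the sorted splenocytes as CD44+. The tetramer was H-2Kd folded with NRP-V7, a mimotope of the islet protein IGRP, and no tetramer-negative spleen cells were collected. The study gives only a lower limit for the purity of its sorted samples. Members of either class may thus include cells that do not bind the tetramer, and binding of single cells was not tested. All cells of both classes therefore shared the strain, sex, age and sort, and each round's classes came out of 1 library.

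A T cell receptor joins an alpha chain, assembled from a V and a J segment, to a beta chain assembled from V, D and J segments. The joint between the segments is the CDR3, the stretch that touches the bound peptide, and cells that share both CDR3 nucleotide sequences are taken as descendants of 1 parent cell, that is a clone. CD8 T cells that have not met antigen, and central memory cells, home to lymphoid organs through receptors such as CCR7, whereas effector cells lose these and gain chemokine and cytotoxic genes. Receptors that use TRAV16N with TRAJ42 have long been known among the IGRP-reactive CD8 T cells of NOD mice. In GRCm38, Trav16n lies on the plus strand at chr14:53351028-53351621, between the near-identical Trav16d-dv11 (chr14:53047287-53047821) and Trav16 (chr14:53743104-53743705), Traj42 lies at chr14:54175773-54175836, and Trbv13-3 lies at chr6:41130147-41130585.

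The CDR3 sequences of the largest clones illustrate the receptors of each class. In each sequence the lower-case letters at the start and the end are those that at least 90% of all clones with that V or that J gene share, and the capitals are the letters between them, at the joint. The 3 largest TRAV16N clones of round 1 held 265, 232 and 218 cells and are shown with both chains.
Round 1, 265 cells, alpha TRAV16N TRAJ49: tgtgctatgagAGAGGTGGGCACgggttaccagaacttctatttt
Round 1, 265 cells, beta TRBV13-3 TRBJ2-4: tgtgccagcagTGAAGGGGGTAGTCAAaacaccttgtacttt
Round 1, 232 cells, alpha TRAV16N TRAJ42: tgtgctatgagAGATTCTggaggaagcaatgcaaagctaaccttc
Round 1, 232 cells, beta TRBV13-3 TRBJ2-4: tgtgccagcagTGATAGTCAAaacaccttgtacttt
Round 1, 218 cells, alpha TRAV16N TRAJ42: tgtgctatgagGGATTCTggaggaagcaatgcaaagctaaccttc
Round 1, 218 cells, beta TRBV13-3 TRBJ2-4: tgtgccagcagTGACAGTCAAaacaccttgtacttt
The 5 largest TRAV16N clones of round 2, with 323, 206, 164, 98 and 62 cells, carried the alpha sequence of the 232-cell clone letter for letter and differed in their beta chains, of which the largest 3 are shown.
Round 2, 323 cells, beta TRBV13-3 TRBJ2-2: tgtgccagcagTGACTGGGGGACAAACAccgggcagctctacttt
Round 2, 206 cells, beta TRBV13-3 TRBJ2-7: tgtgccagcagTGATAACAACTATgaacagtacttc
Round 2, 164 cells, beta TRBV13-3 TRBJ2-4: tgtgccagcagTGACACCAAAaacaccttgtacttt
The largest clone with another TRAV gene held 3 cells in round 1 and 5 cells in round 2, and these shared neither V nor J segments with the TRAV16N clones above.
Round 1, 3 cells, alpha TRAV9D-1 TRAJ50: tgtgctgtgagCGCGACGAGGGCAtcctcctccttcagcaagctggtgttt
Round 1, 3 cells, beta TRBV13-1 TRBJ1-5: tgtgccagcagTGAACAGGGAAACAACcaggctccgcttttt
Round 2, 5 cells, alpha TRAV5-1 TRAJ15: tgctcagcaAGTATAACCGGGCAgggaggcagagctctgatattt
Round 2, 5 cells, beta TRBV1 TRBJ1-3: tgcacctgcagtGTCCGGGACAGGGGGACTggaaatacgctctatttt

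Clone sizes differed strongly between the classes in both rounds. A clone with 1 cell in the library is called a singlet clone here, and a clone with at least 2 cells an expanded clone. The TRAV16N cells formed 82 clones in round 1, of which 49 were singlets (59.8%, 95% interval 48.3 to 70.4), and 81 clones in round 2, of which 37 were singlets (45.7%, 34.6 to 57.1). The other cells formed 208 clones in round 1 with 203 singlets (97.6%, 94.5 to 99.2) and 138 clones in round 2 with 125 singlets (90.6%, 84.4 to 94.9). The singlet share was thus lower for TRAV16N in each round, by 41.4 points on average. All such intervals are exact Clopper-Pearson intervals and cover counting error only. Those on shares of cells treat each cell as an independent draw, although cells of a clone go together, so they are too narrow.

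Counted over cells the gap was wider. Expanded clones held 96.6% (95.5 to 97.5) of the TRAV16N cells in round 1 and 97.6% (96.6 to 98.3) in round 2, against 5.14% (2.59 to 9.01) and 19.4% (13.5 to 26.5) of the other cells. The mean TRAV16N clone had 17.6 cells (SD 46.8, n = 82 clones) in round 1 and 18.7 cells (SD 47.2, n = 81) in round 2, and the mean other clone had 1.03 cells (SD 0.194, n = 208) and 1.12 cells (SD 0.459, n = 138). The 5 largest TRAV16N clones alone held 883 cells (61.1%) in round 1 and 853 cells (56.4%) in round 2, so the TRAV16N class as a whole mostly reflects a small number of clones. Over 2 rounds, an exact permutation test that treats the 4 values as unpaired cannot go below p = 0.333 (two-sided), and one that keeps the classes of a round paired cannot go below 0.5. The unpaired test gave 0.333 for the singlet share, the share of cells in expanded clones (84.8 points) and the mean size (17.1 cells).

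**Figure D1:**
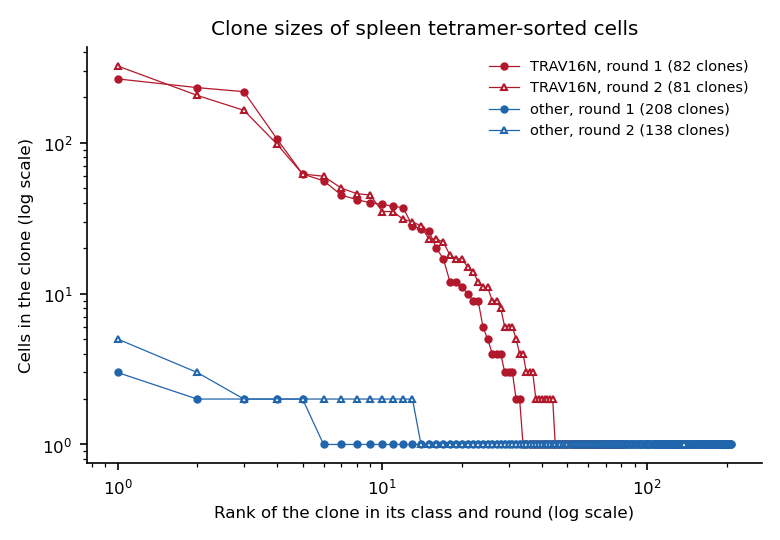
Clone size in cells (log axis) against the rank of the clone (log axis) for TRAV16N clones (red) and clones with other TRAV genes (blue), in round 1 (filled circles) and round 2 (open triangles). The TRAV16N curves begin at 265 and 323 cells, while the other curves begin at 3 and 5 cells and run at 1 cell for most of their length.

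The share taken by TRAV16N depended on whether cells, expanded clones or singlet clones were counted. TRAV16N was carried by 87.1% (85.4 to 88.7) of the member cells in round 1 and 90.7% (89.2 to 92.1) in round 2. It was carried by 86.8% and 77.2% of the expanded clones, and by 19.4% (49 of 252, 14.7 to 24.9) and 22.8% (37 of 162, 16.6 to 30.1) of the singlet clones. For comparison, among singlet clones of the islet tetramer-negative cells the same gene was carried by 10.9% (9.28 to 12.6) in round 1 and 11.4% (10.3 to 12.6) in round 2, and in the islet IGRP+ libraries it was carried by 99.6% and 99.7% of cells. The singlet share in the spleen lay above that of the islet tetramer-negative singlets in both rounds, with intervals that did not overlap.

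The partner segments also differed with clone size within the TRAV16N class. TRAJ42 was used by 28 of 33 expanded TRAV16N clones in round 1 (84.8%, 68.1 to 94.9) and 39 of 44 in round 2 (88.6%, 75.4 to 96.2), but by 13 of 49 (26.5%, 14.9 to 41.1) and 13 of 37 singlets (35.1%, 20.2 to 52.5). Among singlets with another TRAV gene its share was 2.46% (0.804 to 5.65) and 3.20% (0.879 to 7.99). TRAJ42 together with TRBV13-3 was found in 18 of 33 and 30 of 44 expanded TRAV16N clones (54.5% and 68.2%), in 7 of 49 and 4 of 37 singlets (14.3% and 10.8%), and in none of the other singlets (intervals up to 1.80% and 2.91%). TRBV13-3 alone was used by 63.6% and 70.5% of expanded TRAV16N clones, 26.5% and 21.6% of TRAV16N singlets, and 11.3% and 12% of other singlets.

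**Figure D2:**
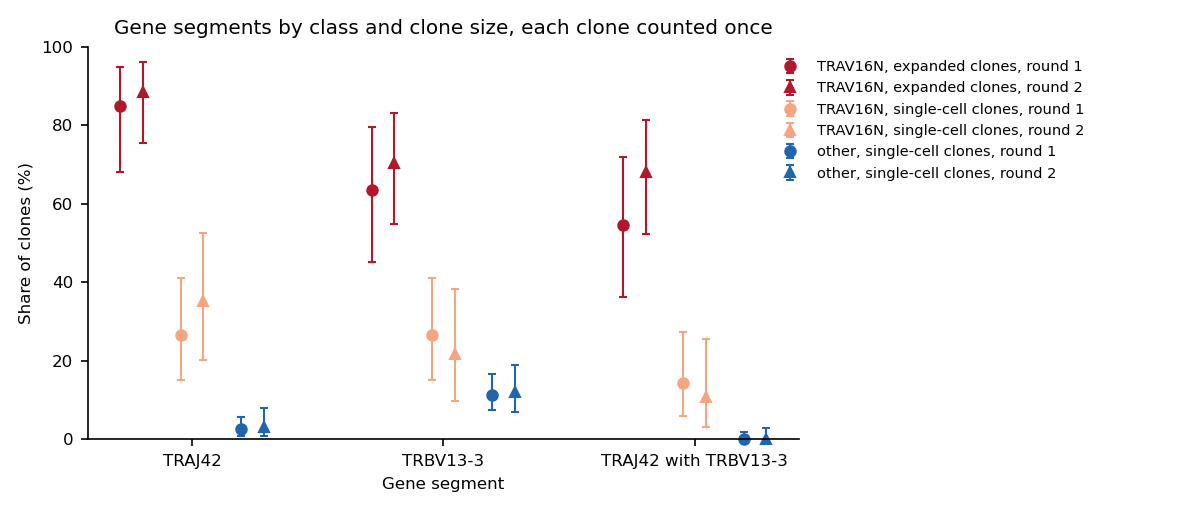
Share of clones (%) that use TRAJ42, TRBV13-3 or both, in expanded TRAV16N clones, singlet TRAV16N clones and singlet clones with another TRAV gene, with circles for round 1, triangles for round 2 and bars for the 95% Clopper-Pearson interval. The TRAJ42 share is 84.8% and 88.6% in expanded TRAV16N clones, 26.5% and 35.1% in TRAV16N singlets and under 4% in the other singlets.

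Counting cells instead of clones moved these shares, because the largest clones weigh most. TRAJ42 was carried by 77.7% of TRAV16N cells in round 1 and 95.9% in round 2, against 2.34% and 3.87% of the other cells, and the lower value of round 1 goes with a TRAJ49 segment carried by 267 cells of 3 clones. Among the beta J segments, TRBJ2-4 led in round 1 with 992 TRAV16N cells (68.6%) and TRBJ2-7 followed with 291 (20.1%). In round 2 the order was TRBJ2-7 with 639 cells (42.2%), TRBJ2-4 with 417 (27.6%) and TRBJ2-2 with 357 (23.6%). The other class drew on 56 and 45 different TRAV genes and on 39 and 37 TRAJ genes, while the TRAV16N clones used 22 and 17 TRAJ genes.

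The alpha CDR3 was of nearly fixed length in expanded TRAV16N clones. It had 45 nucleotides in 32 of 33 (97.0%) and 43 of 44 (97.7%) of them, in 23 of 49 (46.9%) and 21 of 37 (56.8%) TRAV16N singlets, and in 35 of 203 (17.2%) and 12 of 125 (9.6%) singlets of the other class. The alpha chains repeated between clones more often than the beta chains did, since the 33 expanded clones of round 1 held 17 alpha and 32 beta sequences and the 44 of round 2 held 15 alpha and 38 beta sequences. The commonest alpha peptide, which the 232-cell clone above carries, occurred in 19 of 82 TRAV16N clones in round 1 and 30 of 81 in round 2, written in 3 nucleotide versions in each round. Of those clones 17 and 29 were expanded, and they held 839 (58.0%) and 1340 (88.6%) of the TRAV16N cells. No clone of the other class carried the peptide, which follows largely from the rule because the V gene codes for its start. No TRAV16N singlet lay within 1 base of an expanded clone of its round over both chains, although 5 and 6 of them shared an alpha sequence with one.

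Expanded TRAV16N clones were largely found again in the islets of the same pool of mice. Of the expanded TRAV16N clones, 27 of 33 (81.8%, 64.5 to 93.0) in round 1 and 34 of 44 (77.3%, 62.2 to 88.5) in round 2 had cells in the islet IGRP+ library of their round, compared with 3 of 49 and 1 of 37 TRAV16N singlets. Of the clones with another TRAV gene, 1 of 208 in round 1 and 0 of 138 in round 2 (interval up to 2.64%) did so. The islet IGRP+ library of the other round came from separate mice. It held cells with the CDR3 pair of 4 of 33 (12.1%) and 4 of 44 (9.09%) expanded TRAV16N clones, and of no clone with another TRAV gene. Over cells, 95% and 95.5% of TRAV16N cells belonged to clones seen among the islet IGRP+ cells, against 0.467% (1 of 214) and 0 of 155 (interval up to 2.35%) of the other cells. A clone with more cells has more chances to be sampled in both organs, and only 18 other clones were expanded. In the islet IGRP+ libraries 39 of 42 and 54 of 57 clones carried TRAV16N, so few clones of the other class could match there. The gaps in sharing with these libraries were therefore largely fixed in advance. Over all clones the difference was 39.7 points, with the unpaired exact permutation test at its smallest possible p of 0.333, and among clones of at least 2 cells it was 79.5 points.

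Sharing with the islet tetramer-negative cells was low in both classes. It was found for 4 of 82 and 3 of 81 TRAV16N clones and for 6 of 208 and 7 of 138 other clones, a difference of 0.312 points that had the opposite sign in round 2 alone (-1.37) and when only clones with at least 2 cells were counted (-4.72; exact permutation p = 1 over all clones, n = 2 rounds). Some clones of the other class that were small in the spleen were large there. A TRAV6N-7 TRAJ18 clone paired with TRBV16 TRBJ2-2 had 1 spleen cell, 1 islet IGRP+ cell and 232 islet tetramer-negative cells in round 1, and the 5-cell TRAV5-1 clone of round 2 shown above had 96 islet tetramer-negative cells. A TRAV12D-2 TRAJ23 clone with TRBV5 TRBJ2-1 had 3 spleen cells and 59 such islet cells in round 2.

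The expression data behind the classes were uneven in depth. The TRAV16N cells gave 3979548 UMIs in round 1 and 4386057 in round 2, and the other cells gave 838312 and 599807. The median TRAV16N cell had 2640 and 2854 UMIs, and the median other cell had 3872 and 3842. Counts were summed per class and round, giving 4 sums, and values are given as edgeR's CPM, the UMIs of a gene scaled to a total of 1000000 per sum. The V gene transcripts come from the same alpha chain RNA as the contigs, so they are no independent check of the classes. Reads of Trav16n, Trav16d-dv11 and Trav16 are shared between these near copies. In TRAV16N cells Trav16n gave 213 and 2872 UMIs and Trav16d-dv11 gave 2193 and 159, so the split differed between rounds. The study cautions that Cell Ranger is limited in telling the TRAV16 variants apart. At least 1 UMI of the 3 genes was present in 89.8% and 91.1% of TRAV16N cells. The same held for 3.27% (7 of 214) and 2.58% (4 of 155) of other cells. The 5 CD8 T cell markers were detected in every sum with none of them at 0. Cd4 was at 0, 5 of 6 B cell markers were at 0 and only Cd79b gave 17 to 30 UMIs per sum. The red cell list gave 0 to 6 UMIs. Ncr1 and Fcer1g of the NK list were at 0. Klre1 of that list was not, with 1069 and 1022 UMIs in TRAV16N cells and 20 and 7 in the others. Cd68 of the myeloid list gave 80 and 69 UMIs in TRAV16N cells and 4 and 2 in the others. Such raw UMIs are not scaled for depth, and the TRAV16N sums were the deeper ones. A sum cannot tell fewer cells of a kind from less RNA per cell.

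TRAV16N cells expressed cytotoxic and effector genes more highly, and lymphoid homing and naive or central memory genes at lower levels, than the tetramer-sorted cells with other TRAV genes. Of 9262 genes tested with edgeR's quasi-likelihood test with the round as a block, 805 (8.69%) were higher and 798 (8.62%) lower in TRAV16N cells at a Benjamini-Hochberg adjusted p under 0.05, together 1603 (17.3%). Without the round block 225 genes passed, and with each clone entered as 1 cell, which leaves 82 and 81 TRAV16N cells, 162 of 5039 tested genes passed. The median log2 difference over all tested genes was 0.01.

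No member of the naive and central memory list was higher in TRAV16N cells, 14 of 19 tested were lower and 5 did not pass, with a median log2 difference of -1.39 against 0.01 for all genes. Dapl1, a gene of naive T cells, stood at 24.7 and 24.9 CPM in TRAV16N cells of rounds 1 and 2 and at 378 and 334 CPM in the other cells, a log2 difference of -3.84 (SE 0.12; adjusted p = 4.35e-44). Both TRAV16N sums lay far below both other sums. Igfbp4, likewise a gene of naive T cells, stood at 8.97 and 5.11 CPM against 213 and 113 CPM, a log2 difference of -4.52 (SE 0.20). Ccr9, the receptor for gut and thymus homing, was close to 0 in TRAV16N cells, with 0.997 and 1.38 CPM against 52.1 and 36.0 CPM (-5.12, SE 0.42). Ccr7, the lymph node homing receptor, differed by -2.58 (SE 0.10), and the Tcf7 and Il7r transcripts, for the memory transcription factor TCF1 and the interleukin-7 receptor, differed by less, -0.61 (SE 0.09) and -0.71 (SE 0.09). Klf2, S1pr1, Slamf6, Bcl2 and Cd27 did not pass. Without the round block 10 of the list were still lower and Tcf7 and Il7r no longer passed. With 1 cell per clone the median was -0.27 and 5 passed, Ccr7 among them (-0.73), but the calls of Dapl1 (-0.27, adjusted p = 0.458), Igfbp4 (-0.63, adjusted p = 0.0923), Ccr9 (-1.31, adjusted p = 0.0876) and Tcf7 (-0.26) ended and Il7r stood at 0.09.

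Of the cytotoxic and effector list 23 of 25 were higher, 1 was lower and 1 did not pass, with a median log2 difference of 2.52. Cx3cr1, the chemokine receptor of circulating effector cells, had 162 and 149.8 CPM in TRAV16N cells and 7.24 and 6.55 CPM in the others (4.49, SE 0.26; adjusted p = 1.39e-26). Klrk1, which encodes the activating receptor NKG2D, had 274 and 256 CPM against 26.1 and 9.83 CPM (3.85, SE 0.20), and Ccl4, a chemokine, had 1325 and 745 CPM against 120.2 and 70.4 CPM (3.44, SE 0.12). In each of these the lowest TRAV16N sum was several times the highest other sum. Ccl5, a chemokine stored by memory and effector CD8 T cells, was the most abundant member, with 36720 and 28000 CPM against 3428 and 3489 CPM (3.21, SE 0.09; adjusted p = 3.25e-49). The granzymes did not move as one: Gzmk had 463 and 383 CPM against 42.0 and 67.2 CPM and was higher, as were Gzma and Gzmb, while Gzmm was lower, with 31.4 and 27.3 CPM against 76.7 and 63.9 CPM (-1.26). Gzmb rested on few counts, with 34.1 and 31.2 CPM against 10.1 and 0 CPM. Cst7, an inhibitor of cathepsins, was the member that did not pass (0.21, adjusted p = 0.292). Without the block 15 were higher and with 1 cell per clone 13 of 19 tested were higher, with a median of 1.00.

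**Figure D3:**
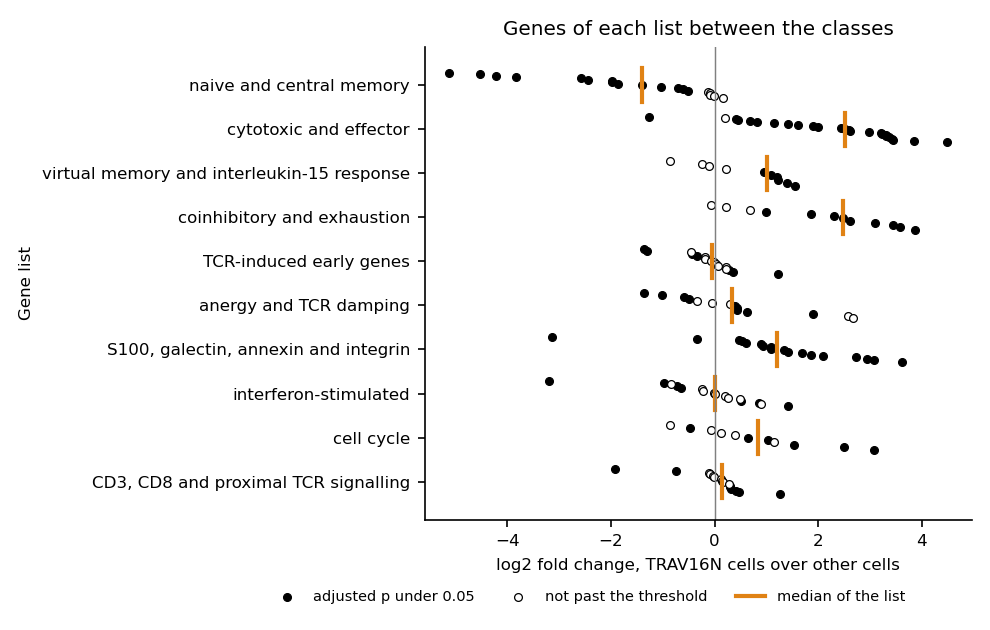
Log2 difference of TRAV16N over other cells for each gene of 10 gene lists, with filled points for adjusted p under 0.05 and orange bars for list medians; genes with no UMI in a class are left out. The naive and central memory list lies mostly below 0 (median -1.39), the cytotoxic (2.52) and coinhibitory (2.47) lists lie above it, and the interferon list is centred at 0.00.

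Of the coinhibitory and exhaustion list, which holds receptors and factors of chronically stimulated T cells, 10 of 13 were higher, none lower and 3 (Ctla4, Cd160 and Cd200) did not pass, with a median of 2.47. Rgs16, a regulator of G protein signalling, had 94.7 and 49.1 CPM against 10.1 and 1.64 CPM (3.57, SE 0.33). Tigit, an inhibitory receptor, had 155 and 108 CPM against 15.9 and 8.19 CPM (3.43, SE 0.24). Pdcd1, encoding PD-1, had 56.8 and 46.0 CPM against 10.1 and 6.55 CPM (2.61, SE 0.33), and Tox, a transcription factor of exhausted T cells, had 219 and 139 CPM against 42.0 and 57.3 CPM (1.87, SE 0.17). For all of these the class values did not overlap. Entpd1, an ectoenzyme, had 195 UMIs in TRAV16N cells and 0 in the others, at least 11.2-fold higher with 3 counts over the group as the floor. Cxcr6, a receptor of tissue-resident cells, had the smallest difference of the named members, 75.5 and 93.7 CPM against 27.5 and 59.0 CPM (0.99), and did not pass without the round block. Without that block 8 of the list were higher. With 1 cell per clone 3 of 5 tested were higher, with Tigit at 2.68, while the call of Tox ended (0.82, adjusted p = 0.144).

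Of the list of S100, galectin, annexin and integrin genes, proteins of adhesion and migration that rise in antigen-experienced T cells, 16 of 18 were higher and 2 lower, with a median of 1.21. Lgals3, a galectin, had 147 and 137 CPM against 13 and 9.83 CPM (3.62, SE 0.24), and S100a6, a calcium-binding protein, had 1405 and 1198 CPM against 197 and 195 CPM (2.73). The lower members were Itgae, encoding the integrin chain CD103, with 3.49 and 3.93 CPM against 31.9 and 34.4 CPM (-3.14, SE 0.38), and Itgb7, its partner chain, at -0.34. Among genes of virtual memory and interleukin-15 response, 6 of 10 were higher and none lower (median 1.02). They were led by Eomes, a transcription factor of memory cells, with 214 and 266 CPM against 73.8 and 88.5 CPM (1.56, SE 0.13), while Il2rb, a receptor chain for interleukin-15, did not pass (-0.11). The study describes the sorted splenocytes as CD44+, although the gate given above does not name CD44. The Cd44 transcript had 76.2 and 91.5 CPM against 40.5 and 45.9 CPM (0.95, adjusted p = 3.17e-05) and did not pass without the block. Without the block 8 of the S100 list were higher and 1 lower, and 2 of the virtual memory list were higher. With 1 cell per clone 13 of 18 of the S100 list were higher and 1 of 9 of the virtual memory list was, and the calls of Eomes (0.76, adjusted p = 0.0565), Cxcr3 (0.43), Cd44 (0.85) and Itgae (-0.56) ended, as did that of Il10ra, which turned to -0.32.

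Lists of T cell receptor signalling moved in no single direction. Of the early genes that T cell receptor signals induce, 3 were higher, 4 lower and 9 did not pass (median -0.05). Myc was lower, with 54.1 and 56.8 CPM against 138 and 136 CPM (-1.30, SE 0.14), while Nr4a1, encoding NUR77, had 40.9 and 12.6 CPM against 49.2 and 3.28 CPM and did not pass. Of the anergy list 5 were higher and 4 lower (median 0.34), with Nt5e, encoding the ectoenzyme CD73, at 1.91 (SE 0.47), Socs3, a brake on cytokine signalling, at -1.37 (SE 0.19) and Cblb, a ubiquitin ligase, at -0.34 (adjusted p = 0.0849). Of the CD3, CD8 and proximal signalling list 6 were higher and 2 lower (median 0.15). Cd8a had 551 and 592 CPM against 643 and 529 CPM (-0.04, adjusted p = 0.847), and Fyn, a kinase, had 276 and 501 CPM against 106 and 221 CPM (1.26), higher in both TRAV16N sums than in either other sum. Cd226, an activating receptor that shares ligands with Tigit, had 20.2 and 26.9 CPM against 82.5 and 95 CPM (-1.91, SE 0.19). Without the round block 1 early gene, 2 anergy genes and 1 gene of the CD3 list were lower and none was higher. With 1 cell per clone no gene of the early and anergy lists passed, so that the calls of Myc (-0.78, adjusted p = 0.0532) and Socs3 ended, as did that of Cd226, while Fyn still passed (0.68).

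Interferon-stimulated and cell cycle genes passed in part, in both directions. Of the interferon list 3 were higher, 4 lower and 9 did not pass (median 0.00), with Irf7, a transcription factor of the pathway, at 0.86 and Igtp, an interferon-induced GTPase, at -0.72 (SE 0.20). Of the cell cycle list 6 were higher, 1 lower and 5 did not pass (median 0.84). Stmn1, a microtubule regulator, was at 2.49 (SE 0.43). Mki67, a marker of dividing cells, gave 109 UMIs in TRAV16N cells and 0 in the others, whose sums held fewer UMIs in total. None of either list passed without the round block. With 1 cell per clone 1 of 12 interferon genes was lower, and none of 6 cell cycle genes passed.

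Outside the lists, the genes with the largest lower values in TRAV16N cells included Plac8, with 3.49 and 2.95 CPM against 120.2 and 90.1 CPM (-5.00, SE 0.26), and Ramp1, a part of the receptor for the neuropeptide CGRP, with 8.22 and 6.48 CPM against 153 and 93.4 CPM (-4.05, SE 0.22). Among the highest was Kcnk5, a potassium channel, with 30.4 and 28.5 CPM against 1.45 and 3.28 CPM (3.65, SE 0.53). AY036118, a non-coding transcript, had 1060 and 2919 CPM against 1490 and 3729 CPM (-0.42, adjusted p = 3.64e-06), so it moved more between rounds than between classes. Without the block it turned positive when the round 1 TRAV16N sum (0.15) or the round 2 sum of the other class (0.42) was left out.

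**Figure D4:**
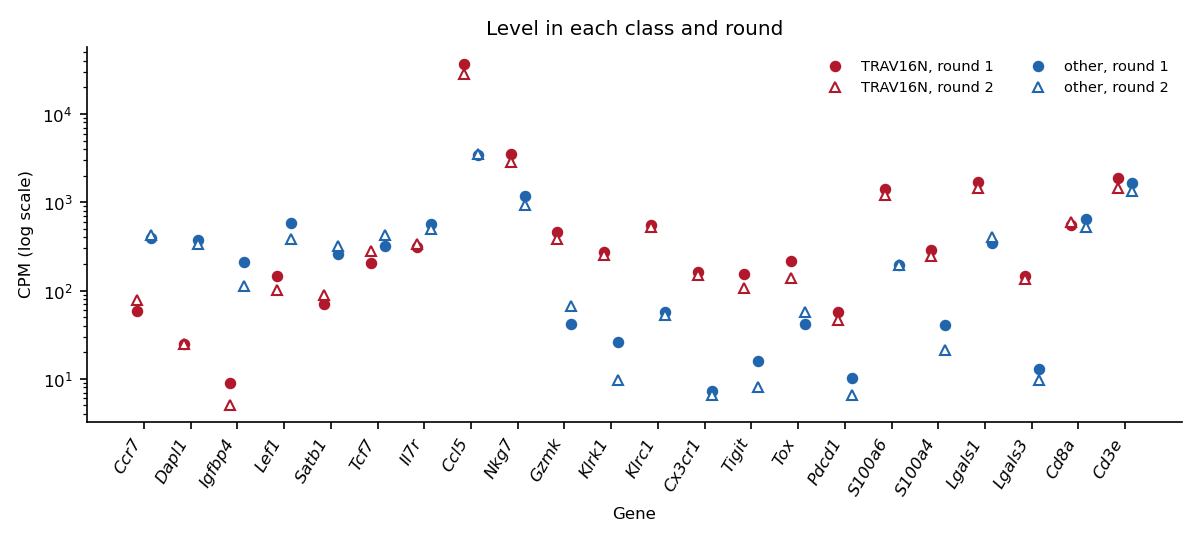
CPM (log axis) of 22 genes in the 4 sums, TRAV16N and other cells of rounds 1 and 2. Dapl1 falls from 378 and 334 CPM in other cells to 24.7 and 24.9 CPM in TRAV16N cells, Ccl5 rises from 3428 and 3489 to 36720 and 28000 CPM, and Cd8a stays between 529 and 643 CPM.

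Because the TRAV16N class was mostly expanded clones and the other class mostly singlets, each class was split by clone size, giving 8 sums. The TRAV16N singlets were 49 and 37 cells (185761 and 149305 UMIs), the expanded TRAV16N clones 1397 and 1476 cells, the other singlets 203 and 125 cells and the other expanded clones 11 and 30 cells. The median TRAV16N singlet had 3765 and 4150 UMIs, close to the 3903 and 4077 of other singlets, while the median cell of an expanded TRAV16N clone had 2615 and 2838. The comparisons below share these sums with each other and with the class comparison, and were not independent.

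Between singlets, few genes separated TRAV16N from other TRAV genes. Of 5555 genes tested, 6 (0.108%) were higher and 1 (0.018%) lower in TRAV16N singlets, together 7 (0.126%), with 226 at an unadjusted p under 0.05. Without the round block edgeR called 0 genes, and DESeq2 with the block called 3. The 6 higher genes were the segments Trav16n, Trav16d-dv11, Trav16 and Trbv3, of which the Trav16 genes follow from the rule, and Klrc1 and Lgals3. Klrc1, a subunit of the inhibitory NKG2A receptor, had 7.01 and 234 CPM in TRAV16N singlets against 34.9 and 26.7 CPM in other singlets, so its direction was opposite in the 2 rounds. Lgals3 had 70.1 and 26.8 CPM against 6.34 and 10.3 CPM (2.56, adjusted p = 0.0495), a call that ended in DESeq2, without the block, without the low-count filter, without the upper limit on genes per cell (0.24), with clone size counted over spleen and islets (0.40), with receptor segments removed and without any TRAV16N sum or other singlet sum. The lower gene was Gzma, with 0 UMIs in TRAV16N singlets and 86 in other singlets, at least 7.27-fold lower on a floor of 3 counts, but those 86 UMIs came from only 5 cells in round 1 and 4 in round 2.

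The homing and memory genes that separated the classes did not pass between the singlets. Dapl1 had 532 and 535 CPM in TRAV16N singlets against 409 and 350 CPM in other singlets, a log2 difference of 0.48 (95% interval 0.17 to 0.79, adjusted p = 0.645). Ccr7 differed by -0.12 (-0.45 to 0.20). For Il7r the difference was 0.16 (-0.17 to 0.49) and for Tcf7 it was -0.07 (-0.43 to 0.28). The intervals were too wide to place Cx3cr1 (2.18, 0.37 to 3.99), Tox (0.02, -0.87 to 0.91) or Eomes (-0.24, -0.97 to 0.48). Of the gene lists, 1 of 24 cytotoxic genes was higher and 1 lower, 1 of 18 genes of the S100 list was higher, and no gene of the other 8 lists passed. These adjusted p-values do not show that the singlets of both classes were alike.

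Within TRAV16N, expanded clones differed from singlets in 414 of 5555 genes (7.45%), of which 187 (3.37%) were higher and 227 (4.09%) lower in expanded clones. Without the round block 84 passed, and leaving out 1 sum at a time gave 126 (round 1 TRAV16N singlets) to 523 (round 1 expanded clones of the other class). Of the naive and central memory list 13 of 19 were lower and none higher (median -1.20). Of the cytotoxic list 20 of 24 were higher and none lower (median 2.31), of the S100 list 15 of 18 were higher and 1 lower (median 1.22), of the coinhibitory list 6 of 8 were higher (median 1.94) and of the virtual memory list 6 of 9 were higher (median 1.24). Without the block these counts were 9 lower, 9 higher, 5 higher, 1 higher and 2 higher. Of the anergy list 1 of 11 was higher and 3 lower. Of the interferon, cell cycle, early T cell receptor and CD3 lists at most 1 gene passed in each direction.

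Dapl1 had 6.22 and 10.2 CPM in expanded TRAV16N clones against 532 and 535 CPM in the singlets, a log2 difference of -5.98 (SE 0.23). Ccr7 had 50 and 70.2 CPM against 350 and 502 CPM (-2.82, SE 0.19), and the interleukin-6 receptor genes Il6ra and Il6st differed by -4.80 (SE 0.42) and -4.11 (SE 0.48). Every expanded sum lay below every singlet sum in these genes. Ccl5 had 39760 and 30590 CPM against 2564 and 6252 CPM (2.97), and S100a6 had 1519 and 1308 CPM against 168 and 274 CPM (2.66, SE 0.21). Tox had 235 and 152 CPM against 63.1 and 33.4 CPM (2.00, SE 0.32). Tigit had 168 and 118 CPM against 7.01 and 20.1 CPM, the latter from 1 and 3 UMIs (3.37, SE 0.48). Gzma had 2269 UMIs in expanded clones and 0 in singlets, at least 31.6-fold higher, and Gzmb had 296 and 0, at least 4.12-fold higher. The calls of Tigit and Gzmb ended in DESeq2 and also without the round block, while that of Gzma held in both. Cd44 (0.62, adjusted p = 0.402) and Cxcr6 (0.32, adjusted p = 0.722) did not pass, nor did Trav16n itself (0.26, adjusted p = 0.553).

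Among clones with other TRAV genes the expanded sums were 11 and 30 cells, of 5 and 13 clones, and 18 of 5555 genes passed (0.324%), 13 (0.234%) higher and 5 (0.09%) lower. Without the block no gene passed in edgeR, 486 had an unadjusted p under 0.05 with the block, and DESeq2 called 7. Klrc1 had 529.5 and 211 CPM (17 and 19 UMIs) in expanded against 34.9 and 26.7 CPM in singlet clones (3.24, adjusted p = 1.88e-12). S100a6 had 1651 and 467 CPM against 132 and 158 CPM (2.57), and Ccl5 had 19810 and 8008 CPM against 2746 and 2899 CPM (2.26). In each of these the expanded sum of round 1 lay above that of round 2, and both lay above the singlets. Ccr7 was lower (-1.33), with 125 and 223 CPM against 423 and 498 CPM. AY036118 had 4298 and 9922 CPM against 1412 and 2846 CPM (1.69, adjusted p = 1.36e-06). In DESeq2 the calls of Klrc1, Ccl5 and Ccr7 ended, while those of S100a6 and AY036118 held.

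**Figure D5:**
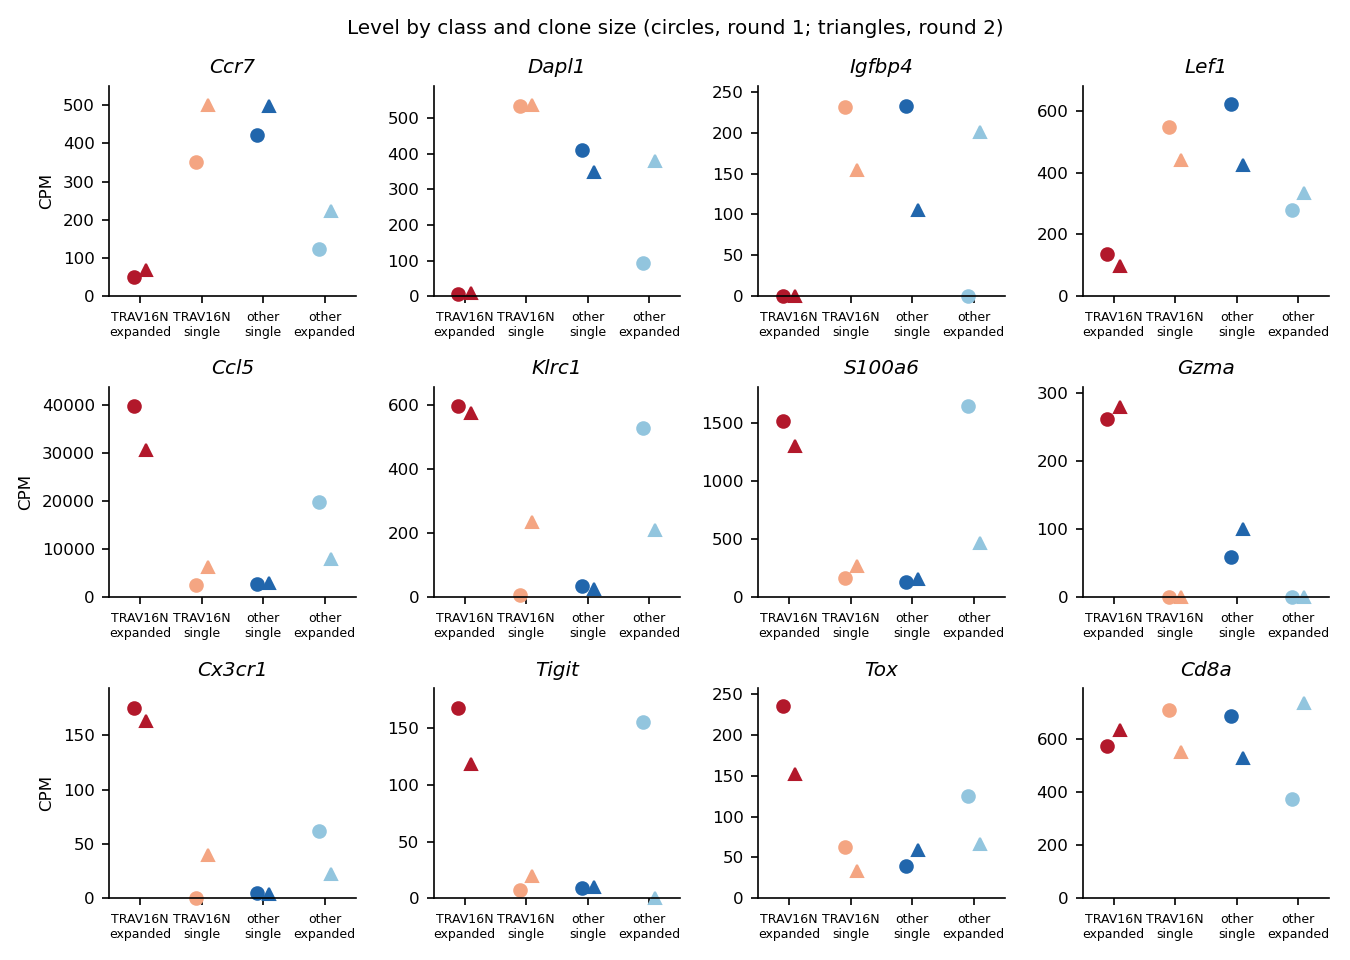
CPM (linear axes from 0) of 12 genes in TRAV16N and other cells split into singlet and expanded clones, rounds 1 and 2. Ccr7 and Dapl1 are low in expanded TRAV16N clones and high in both kinds of singlet, Ccl5 and S100a6 are high in expanded clones of both classes, and the other expanded sums (11 and 30 cells) lie apart between rounds for Dapl1 (93.4 and 378 CPM).

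The same contrast was seen cell by cell after each cell was thinned to 1000 UMIs, which left out 8 and 9 cells of expanded TRAV16N clones and 1 other singlet. At least 1 Dapl1 UMI was then present in 0.432% and 0.613% of cells of expanded TRAV16N clones, 34.7% and 35.1% of TRAV16N singlets and 22.3% and 22.4% of other singlets. Before thinning these shares were 0.644% and 1.49%, 53.1% and 59.5%, and 49.3% and 41.6%. Ccl5 was present in 100% and 99.7% of cells of expanded TRAV16N clones, in 24.5% and 40.5% of TRAV16N singlets and in 26.7% and 29.6% of other singlets, and Klrc1 in 40.2% and 42.2%, 0% (0 of 49 cells, interval up to 7.25%) and 18.9%, and 2.97% and 2.40%. Cd8a varied little between the same groups, at 40.7% and 49.6%, 36.7% and 40.5%, and 43.1% and 39.2%. The B cell gene Cd79a was present in no cell of any group. It had no UMI in any sum before thinning either, so it gives no measure of background RNA.

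The step from singlet to expanded clones differed between the classes for 34 genes (0.612%), 7 with a more positive (0.126%) and 27 with a more negative (0.486%) difference in TRAV16N, and 21 of the 34 had the same direction in both rounds. For Dapl1 the step was -5.98 in TRAV16N and -0.35 in the other class, a difference of -5.62 (SE 0.43), and for Lef1, a transcription factor of naive cells, it was -2.09 and -0.60, a difference of -1.49 (SE 0.33). These rest on the round 2 expanded sum of the other class, 30 cells: without it 15 of the 18 named differences no longer passed, with Dapl1 at -3.64 (adjusted p = 0.269) and Lef1 at -0.67 (adjusted p = 0.695). Dapl1 stood at 93.4 and 378 CPM in the other expanded sums against 409 and 350 CPM in the other singlets, so the rounds did not move alike. For Igfbp4 the difference was -7.81, carried by round 2 (-8.63) and opposite in round 1 (3.07). Without the round block 3 genes passed.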

How the data were processed

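The deposited data were UMI counts per gene and cell barcode, in matrices that the authors made from 10x libraries with Cell Ranger on the mm10 reference, and tables of assembled receptor contigs per barcode, of which only the V and J genes and CDR3 nucleotide sequences were used. Segment positions are from GENCODE M21 (GRCm38). From these counts, barcodes were filtered and paired with contigs as described, summed per class and round (4 sums) or per class, clone size and round (8 sums), and tested with edgeR 4.0.16 (R 4.3.3; filterByExpr, TMM scaling, quasi-likelihood F-test, Benjamini-Hochberg adjustment) with the round as a block. Each round's classes come from the same library, so the round pairs them, and over 5447 genes the deviations of same-round sums from their class means correlated at r = 0.739. The 4-sum fit leaves 1 residual degree of freedom, so each gene's spread is mostly borrowed from the other genes (82.25 prior degrees of freedom). The 8-sum fit leaves 3, but its prior degrees of freedom were infinite. A gene's own spread thus has no weight in the p-values of the clone size comparisons. P-values of both fits rest on only 2 pools.

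In round 1, 3524 of 3708 barcodes passed the cell filter and 1660 (47.1%) had exactly 1 chain of each kind. In round 2, 2430 of 2669 passed and 1668 (68.6%) did. Requiring exactly 1 chain of each kind also removes many doublets; no doublet caller was run and free RNA was not subtracted. The spleen libraries shared 6 to 35 barcodes with other libraries, 0 of them with the same clone. The members and gene lists were chosen with earlier results of these data known. Genes were named as the 12 with the largest change in each direction at 20 CPM or more, past the threshold and alike in both rounds, the 3 largest of each list, and a set of 15 named in any case; further list members complete a count and were chosen after their values were seen. Some genes that this rule names are not reported here. Alternatives were DESeq2 1.42.0, no block, no low-count filter, other scaling, 1 cell per clone, and leaving out a sum or a round. The edgeR step was tested on simulated data.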

Additional observations from a re-analysis of the deposited data

Results flagged for a closer look

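The change from singlet to expanded clones was tested for a difference between TRAV16N and the other TRAV genes, and 34 genes passed (edgeR's quasi-likelihood test, Benjamini-Hochberg adjusted p under 0.05). The values below are the expanded-minus-singlet log2 difference in TRAV16N less that in the other class. The expanded sums of the other class hold only 11 and 30 cells, so a difference can rest on a handful of UMIs. Without the round 2 sum of 30 cells, 15 of the 18 named differences no longer passed, and those of Gzma, Ctla2a and AY036118 did.

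The difference was positive for Pbxip1 (3.62), Dek (2.23), Ctla2a (2.10) and Smap1 (1.77). For Gzma the difference had an adjusted p of 9.25e-19, with no UMI in TRAV16N singlets or in other expanded clones. Among other singlets, 5 of 203 and 4 of 125 cells held Gzma, with up to 15 and 27 UMIs in a cell. With so few positive cells, finding none in the other expanded sums cannot decide whether Gzma changed there (intervals up to 28.5% and 11.6%). Neither that adjusted p nor the call that held without the round 2 sum shows a Gzma step in the other class. The difference was negative for the naive and central memory genes Igfbp4 (-7.81), Dapl1 (-5.62), Nsg2 (-1.53), Ccr7 (-1.49) and Lef1 (-1.49). It was also negative for Adgrg5 (-5.28), Plac8 (-4.90), Ramp1 (-4.31), Il4ra (-2.92), Rgs10 (-2.60), Gramd1a (-1.73), Smc4 (-1.67) and AY036118 (-1.67). For Igfbp4 the sign was opposite in round 1.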

How the results depend on the processing

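The round block pairs the classes of a library. With no block the 1603 genes that differed between the classes became 225, the 7 between singlets 0, the 414 between expanded and singlet TRAV16N clones 84, the 18 in the other class 0 and the 34 differences of these steps 3. DESeq2 gave 421, 3, 291, 7 and 20. Its share of higher genes was 38.7% against 50.2% in the class comparison and 27.1% against 45.2% within TRAV16N. One cell per clone gave 162 genes for the classes, the fewest of the settings with all 4 sums, ended 21 of the 35 named calls that had a value, and Il10ra (-0.32), Fosb (-0.018) and Il7r (0.094) changed sign. Without the block and without 1 sum, the classes differed in 215 and 233 genes (TRAV16N round 1 or 2 left out) and 153 and 124 (other), and AY036118 turned to 0.147 and 0.422. Leaving out 1 sum with the block gave 126 to 523 genes within TRAV16N (126 and 183 without its round 1 or 2 singlets, 170 and 191 without its expanded sums, 257 and 267 without the other singlets), 7 to 137 in the other class (137 without its round 2 expanded sum, 7 and 8 without a singlet sum) and 12 to 49 step differences (12 and 20 without TRAV16N singlets, 14 and 13 without other singlets, 16 without the round 2 other expanded sum). Klrc1 between singlets ranged from -2.30 to 3.13 and was -2.26 without the round 2 TRAV16N singlets. The fits that left out a sum or a round had fewer samples; the cause of the other shifts was not tested. The class comparison called 1300 genes without the largest clones and 1904 without the upper limit on genes per cell. Receptor segments left out gave 2 genes between singlets, no low-count filter gave 21 step differences, and clone size counted over spleen and islets gave 37 genes in the other class with Gzma at 0.92. Step differences changed sign without round 2 for Igfbp4 (3.07, and 3.49 without the round 2 other expanded sum, a range of -8.63 to 3.49). Clones counted once lowered the class difference of TRAJ42 to 54.1 points, TRBV13-3 to 32.9 and the 3 beta J genes to 29.8. Sharing with islet tetramer-negative cells turned to -4.72 for clones of at least 2 cells and ranged from -1.37 to 1.99 by round.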

Other observations

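Ribosomal protein genes, a family chosen after its values were seen, were lower in TRAV16N cells. Of 80 tested, 78 were lower and none higher between the classes, with a median log2 difference of -0.82 against 0.01 over all genes and of -0.30 with 1 cell per clone. They took 27.4% and 22.3% of the UMIs of TRAV16N cells and 41.7% and 34.0% of those of other cells. By clone size the shares were 26.7% and 21.9% in expanded TRAV16N clones, 42.9% and 32.3% in TRAV16N singlets and 42.2% and 34.7% in other singlets. Between singlets none passed in edgeR (median -0.06), and 48 were lower in expanded than in singlet TRAV16N clones.

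Immunoglobulin transcripts split by gene. Igkc, the kappa light chain constant gene of B cells, had 569 UMIs in TRAV16N cells and 0 in the others, at least 32.6-fold higher on a floor of 3 counts, and was found in 11% and 14% of cells of expanded TRAV16N clones at no more than 6 and 5 UMIs per cell. Among the 6 largest TRAV16N clones of each round the share ranged from 1.89% to 30.6% in round 1 and from 6.31% to 36.6% in round 2. Ighm, the heavy chain gene of IgM, went the other way, in 7.73% and 8.27% of cells of expanded TRAV16N clones, 36.7% and 56.8% of TRAV16N singlets and 54.2% and 47.2% of other singlets. The source of either transcript was not tested.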
